A study of Homo sapiens with 12 samples.

Results

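The 9 genes described here encode members of 3 families of signalling brakes. PHLDA1, PHLDA2 and PHLDA3 are pleckstrin homology-like PHLDA proteins, SPRY1, SPRY2 and SPRY4 are Sprouty proteins, and SPRED1, SPRED2 and SPRED3 are SPRED proteins. The genes were taken by name from a table of read counts for 54261 gene symbols, and all 9 were found there. The table comes from RNA sequencing of 12 libraries in 4 groups of 3, described by the submitters as biological replicates. The groups are SW480 with lactate, SW480 without lactate, DLD1 with lactate and DLD1 without lactate. SW480 and DLD1 are established cell lines from human colorectal cancers, and lactate is the end product of glycolysis that cells export and import. The labels give no dose, duration or lactate salt, no vehicle for the controls and no genotype beyond the line. Nothing says whether replicates came from separate cultures, so p-values measure the spread between these libraries.

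Growth factor receptors switch on RAS, which activates the kinase cascade ending in ERK, and ERK in turn induces genes that dampen the pathway. Sprouty proteins are among these induced inhibitors and act between the receptor and RAF. SPRED proteins bring neurofibromin, the product of NF1, to the membrane, where it returns RAS to its inactive state. PHLDA1 is induced by growth and stress signals, PHLDA2 is an imprinted gene known for limiting placental growth, and PHLDA3 is a p53 target whose protein competes with the kinase AKT for membrane lipids.

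The 9 genes lie on 9 different chromosomes (GRCh38.p14, RefSeq). PHLDA1 is on chromosome 12 (76025447 to 76031776), PHLDA2 on 11 (2928273 to 2929420) and PHLDA3 on 1 (201464278 to 201469188). SPRY1 is on chromosome 4 (123396795 to 123403760), SPRY2 on 13 (80335976 to 80341126) and SPRY4 on 5 (142310430 to 142325021). SPRED1 is on chromosome 15 (38252836 to 38357249), SPRED2 on 2 (65307175 to 65432599) and SPRED3 on 19 (38388697 to 38399587). RefSeq promoter windows were at hand for 7 of the 9 genes, all but PHLDA2 and PHLDA3. The 250 bases before a start site are printed for the 3 genes that rose in SW480 (PHLDA1, SPRY2, SPRY4) and, beside them, for SPRY1 and SPRED2, which did not pass the test, 1 with motif matches and 1 without. SPRY1 lies on the plus strand and the other 4 on the minus strand, and all are written 5′ to 3′. Capitals mark matches to the SP1 motif GGGCGG or the EGR1 motif GCGGGGGCG on either strand.
PHLDA1 (chr12:76031777-76032026): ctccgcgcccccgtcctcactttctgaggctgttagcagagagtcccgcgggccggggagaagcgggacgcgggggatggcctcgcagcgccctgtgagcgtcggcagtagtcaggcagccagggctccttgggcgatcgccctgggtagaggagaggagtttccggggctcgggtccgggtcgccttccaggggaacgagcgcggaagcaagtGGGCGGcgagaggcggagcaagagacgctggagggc
SPRY2 (chr13:80341127-80341376): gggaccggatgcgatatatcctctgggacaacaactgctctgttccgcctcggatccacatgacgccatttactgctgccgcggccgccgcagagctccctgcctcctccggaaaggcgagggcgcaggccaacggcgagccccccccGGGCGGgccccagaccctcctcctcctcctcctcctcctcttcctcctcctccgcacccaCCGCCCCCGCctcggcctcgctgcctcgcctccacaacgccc
SPRY4 (chr5:142324248-142324497): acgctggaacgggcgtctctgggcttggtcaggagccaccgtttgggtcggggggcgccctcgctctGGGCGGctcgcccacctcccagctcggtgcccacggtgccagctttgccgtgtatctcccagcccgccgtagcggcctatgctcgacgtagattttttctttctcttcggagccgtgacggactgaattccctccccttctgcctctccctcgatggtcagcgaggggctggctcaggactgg
SPRY1 (chr4:123398136-123398385): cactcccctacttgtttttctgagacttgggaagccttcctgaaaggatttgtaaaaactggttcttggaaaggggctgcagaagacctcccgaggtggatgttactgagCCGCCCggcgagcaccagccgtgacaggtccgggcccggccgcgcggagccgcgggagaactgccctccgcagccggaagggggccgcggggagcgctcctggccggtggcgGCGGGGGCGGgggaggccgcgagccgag
SPRED2 (chr2:65432600-65432849): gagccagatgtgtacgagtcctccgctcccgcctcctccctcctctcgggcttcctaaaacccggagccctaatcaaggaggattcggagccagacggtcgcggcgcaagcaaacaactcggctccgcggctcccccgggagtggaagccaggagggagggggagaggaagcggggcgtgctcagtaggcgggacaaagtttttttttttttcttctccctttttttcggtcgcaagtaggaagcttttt
The windows of PHLDA1 and SPRY2 hold 70.4% G and C, that of SPRY1 68.0%, that of SPRY4 65.6% and that of SPRED2 58.8%. The SP1 motif is in a window of PHLDA1, SPRY2 and SPRY4 and also of SPRY1, SPRED1 and SPRED3, which did not pass the test, so it does not separate the genes that rose from the others. It is in 42.6% of 35116 windows of this length over all genes. SPRY2 and SPRY1 also hold the EGR1 motif in the printed window (4.72% of windows), whose match overlaps an SP1 match in both. The AP-1 motif TGANTCA (6.57% of windows), the CRE TGACGTCA (1.65%), the ETS motif CCGGAAGT (3.42%), the E-box CACGTG (6.34%) and the hypoxia core ACGTG contained in it (18.5%) were searched on both strands too, with no match in these 5 windows. A match describes letters only. The 7 genes have 12 windows in all, so a share of windows is not a share of genes. SPRY1, SPRY2 and SPRED2 have windows besides those printed, and for SPRY1 the printed window is the one with matches.

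Total counts ran from 12302311 to 22662063 per library. The libraries labelled SW480 nearly lacked several defining markers of colorectal epithelium. Levels are in CPM, read counts scaled to library size by TMM. In these libraries EPCAM, an epithelial adhesion gene, stood at 0.638 ± 0.240 CPM with lactate and 0.988 ± 0.189 CPM in controls (SD, n = 3), against 646 ± 18.1 and 687 ± 18.5 CPM in DLD1. CDX2, an intestinal transcription factor, was at 0.0699 ± 0.0722 and 0.127 ± 0.153 CPM in SW480 with lactate and control, against 173 ± 3.26 and 135 ± 40.0 CPM in DLD1. The keratin gene KRT8 was present in SW480, at 946 ± 105 CPM with lactate and 1347.7 ± 112 CPM in controls. The matrix gene DCN, on the fibroblast marker list, was at 68.2 ± 10.4 and 83.2 ± 5.88 CPM in SW480 with lactate and control. On the same list COL3A1 was at 132 ± 1.38 and 146 ± 10.3 CPM, and COL1A1 at 50.8 ± 1.61 and 21.6 ± 1.99 CPM. The others were low in SW480: LUM (4.06 and 4.42 CPM), PDGFRB (3.26 and 3.11), COL1A2 (0.765 and 0.953) and THY1 (0.0620 and 0.0657). PDGFRB was higher in DLD1 (5.56 and 3.51 CPM). The summed level of the 7 fibroblast markers in SW480 was 247 to 271 CPM with lactate and 255 to 267 CPM in controls. The groups are called by their labels below. DLD1 controls 2 and 3 stood furthest from their group, with differences that followed transcript GC content across genes (Spearman's rho -0.80 and 0.83). Other libraries had such a trend too, among them SW480 lactate 3 (-0.62), SW480 lactate 1 (0.50), DLD1 lactate 2 (-0.51) and DLD1 lactate 3 (0.46). Results for DLD1 are therefore also given with libraries left out or corrected for that trend.

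**Figure D1:**
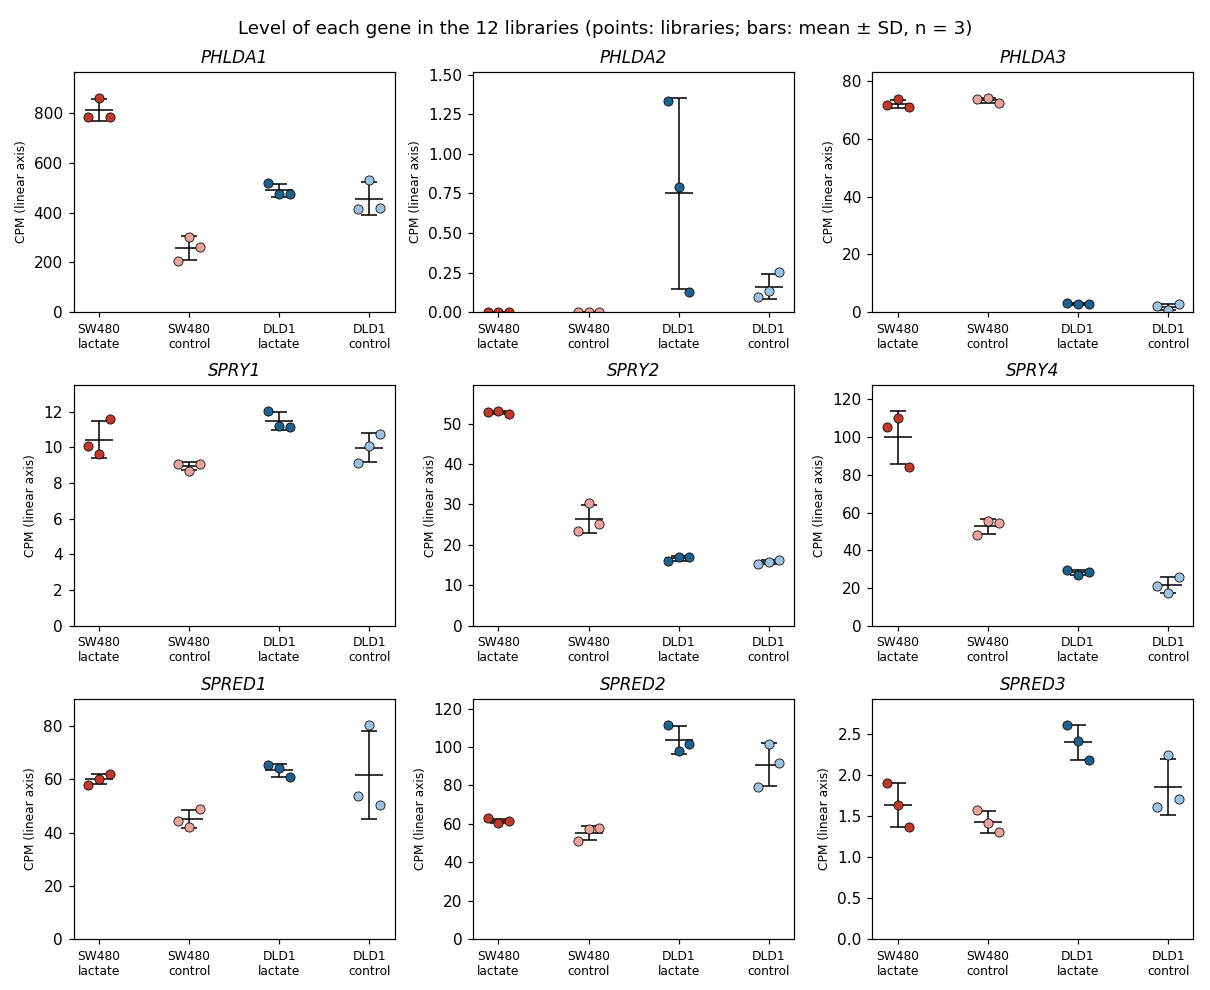
Level of each of the 9 genes in CPM (linear axes from 0) in every library, by line and treatment, with mean ± SD over 3 libraries. PHLDA1, SPRY2 and SPRY4 are higher with lactate in all 3 SW480 libraries, and PHLDA3 is near 73 CPM in both SW480 groups but under 4 CPM in DLD1.

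Levels between genes were set side by side per kilobase of transcript, as CPM per kilobase. PHLDA1 was the highest of the 9 in every group. It averaged 137 ± 7.55 CPM per kilobase in SW480 with lactate and 43.5 ± 7.96 in SW480 controls, against 82.9 ± 4.20 and 77.1 ± 11.2 in DLD1 with lactate and DLD1 controls (SD, n = 3). PHLDA3 was the next highest gene in SW480, at 27.3 ± 0.569 CPM per kilobase with lactate and 27.8 ± 0.331 in controls. In DLD1 that place was held by SPRED2, at 25.3 ± 1.75 with lactate and 22.2 ± 2.75 in controls. PHLDA2 and SPRED3 were the lowest genes, with SPRED3 at 0.343 ± 0.0559, 0.2999 ± 0.0287, 0.504 ± 0.0448 and 0.389 ± 0.0719 CPM per kilobase in SW480 lactate, SW480 control, DLD1 lactate and DLD1 control.

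Of the level per kilobase summed over SPRY1, SPRY2 and SPRY4, most came from SPRY2 and SPRY4. SPRY4 took 46.1% ± 3.91 and SPRY2 44.7% ± 2.42 in SW480 with lactate, against 44.7% ± 1.33 and 40.8% ± 2.36 in SW480 controls. SPRY1 took 9.20% ± 1.497 in SW480 with lactate and 14.5% ± 1.52 in SW480 controls. In DLD1 SPRY1 had a share of 27.0% ± 0.919 with lactate and 27.4% ± 1.53 in controls. The level summed over these Sprouty genes was 43.7 ± 2.55 CPM per kilobase in SW480 with lactate and 23.8 ± 1.96 in SW480 controls. In DLD1 it was 16.3 ± 0.277 with lactate and 13.99 ± 1.20 in controls. Within the SPRED family SPRED2 held 65.1% ± 0.912 in SW480 with lactate and 68.9% ± 1.90 in SW480 controls, and 74.5% ± 1.21 and 73.0% ± 3.47 in DLD1. SPRED3 held under 2% of the SPRED family in each group.

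**Figure D2:**
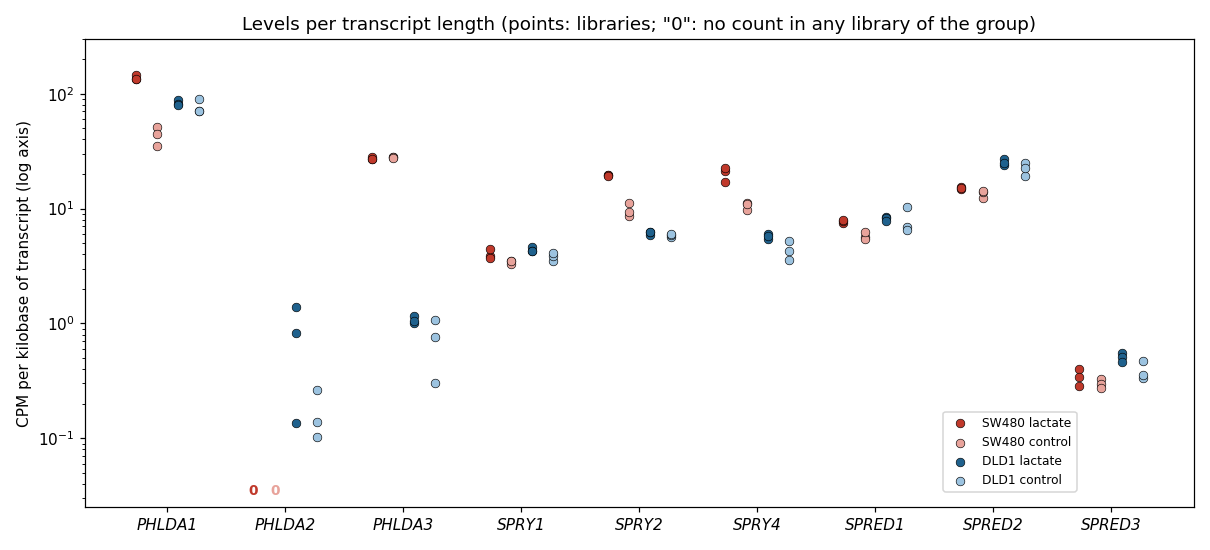
Level per kilobase of transcript (log axis) for the 9 genes, with 1 point per library and groups from left to right as SW480 lactate, SW480 control, DLD1 lactate, DLD1 control. PHLDA1 is the top gene in each group, and PHLDA2 had no count in any of the 6 SW480 libraries.

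The first comparison asked how the genes responded to lactate in SW480. PHLDA1, SPRY2 and SPRY4 rose, by factors of 3.16, 2.004 and 1.90, and no member fell. PHLDA3, SPRY1, SPRED1, SPRED2 and SPRED3 did not pass the test, and PHLDA2 had no counts. Thus 3 of the 8 genes that passed the filter on low counts were called higher, where 6.83% of all 17572 genes tested were. A call means an adjusted p under 0.05 in edgeR's quasi-likelihood test with Benjamini-Hochberg adjustment over all genes. For 6 of the 8 every lactate library was above every control, as held for 20.6% of all genes. Groups did not overlap in either direction for 41.0% of all genes. The median log2 fold change of the 8 was 0.32, against -0.01 over all genes tested. In bulk RNA, a change in the number of cells that express a gene cannot be told apart from a change per cell. Marker sums moved too: the 9 epithelial markers summed to 1418 to 1752 CPM with lactate and 1997 to 2349 CPM in controls. Of these, KRT8 (946 and 1348 CPM with lactate and in controls) and KRT18 (495 and 756 CPM) were lower with lactate. KRT19 was higher (161 and 98.2 CPM), and the highest of the others was CDH1 (1.34 and 1.48 CPM). The 7 leukocyte markers summed to 93.3 to 118 CPM with lactate and 38.1 to 59.6 CPM in controls, most of it CD68, a lysosomal gene of macrophages. The leukocyte gene PTPRC was at or near 0. The part of these shifts in the results was not tested.

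PHLDA1 had 787, 864 and 786 CPM in the 3 SW480 lactate libraries, against 207, 301 and 263 CPM in the 3 controls. Each lactate library was above every control. The log2 fold change was 1.66 ± 0.14 (SE) with an adjusted p of 2.08e-05 in edgeR, and it ranked 4 by p among all genes tested. GENCODE places 2 antisense genes over exons of PHLDA1, and with the strand setting not given their reads cannot be told from its own. PHLDA3 had 71.6, 73.8 and 70.9 CPM with lactate, against 73.8, 74.0 and 72.4 CPM in controls. The groups overlapped, and the log2 fold change was -0.03 ± 0.17 (adjusted p 0.951 in edgeR). GENCODE also places a noncoding gene, AC096677.2, over 512 exon bases of PHLDA3 on the same strand, so that reads there cannot be told apart with any strand setting. PHLDA2 had 0 counts in all 6 SW480 libraries, which allows up to 0.0328 CPM over them (3 counts, counting error only).

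SPRY2 had 52.8, 53.1 and 52.5 CPM in SW480 with lactate, against 23.5, 30.4 and 25.3 CPM in controls. The lactate libraries lay within 1 CPM of each other and above all controls. Its log2 fold change was 1.003 ± 0.11, with an adjusted p of 9.97e-05 in edgeR. SPRY4 had 105, 110.3 and 83.9 CPM with lactate, against 47.9, 55.6 and 54.4 CPM in controls. Again the groups did not overlap, with a log2 fold change of 0.92 ± 0.14 (adjusted p 8.73e-04 in edgeR). SPRY1 had 10.0, 9.62 and 11.6 CPM with lactate, against 9.07, 8.66 and 9.08 CPM in controls. All 3 lactate libraries were above the controls, as held in this direction for 20.6% of all genes, and the log2 fold change of 0.22 ± 0.13 was not called (adjusted p 0.306 in edgeR).

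SPRED1 had 58.0, 60.2 and 61.9 CPM in SW480 with lactate, against 44.3, 42.0 and 48.7 CPM in controls. The groups did not overlap, and the log2 fold change was 0.41 ± 0.15, with an adjusted p of 0.0825 in edgeR. It was called after correction for GC content and transcript length (log2 0.35, adjusted p 4.62e-04) and with SW480 fitted alone (8.61e-04). Other fits that called it were those without a filter (0.0339), without DLD1 control 2 (0.00113), without DLD1 control 3 (0.0302) and with the replicate number as a block (0.0463). In 15 of 23 alternatives it stayed uncalled, with adjusted p up to 0.233. The fit of SW480 alone called 16.0% of all genes higher, that with the correction 13.7%, that without DLD1 control 2 12.4% and that without DLD1 control 3 9.20%. The fit with the block called 7.26% higher and that without a filter 3.79%. DLD1 libraries enter this result through the shared estimate of the spread. SPRED2 had 62.8, 60.5 and 61.3 CPM with lactate, against 50.8, 57.1 and 57.7 CPM in controls. The groups did not overlap, with a log2 fold change of 0.16 ± 0.11 (adjusted p 0.381 in edgeR). SPRED3 had 1.90, 1.64 and 1.37 CPM with lactate, against 1.58, 1.42 and 1.31 CPM in controls, which overlapped (log2 0.20 ± 0.25).

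The calls of PHLDA1, SPRY2 and SPRY4 in SW480 held without any 1 of the 12 libraries and under all other settings tried. Their highest adjusted p-values over the 23 alternatives were 4.14e-04, 0.00169 and 0.0119. The log2 fold change ranged from 1.53 to 1.79 for PHLDA1, from 0.93 to 1.11 for SPRY2 and from 0.86 to 1.05 for SPRY4.

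The same question in DLD1 gave no call among the 8 genes tested, where 0.381% of all genes were called in either direction and 0.336% were called higher. All 8 had a log2 fold change above 0, as did 52.0% of all genes tested. The highest were PHLDA3 at 0.54 ± 0.26, SPRY4 at 0.40 ± 0.14 and SPRED3 at 0.38 ± 0.23, and the median of the 8 was 0.19, against 0.02 over all genes. An unadjusted p under 0.05 was reached by SPRY4 (0.0144), and by 18.5% of all genes tested. By DESeq2 and limma-voom, too, 0 of the members were called, where 5.73% and 0.455% of all genes tested were called in either direction. The 7 leukocyte markers summed to 11.1 to 14.3 CPM with lactate and 4.30 to 9.60 CPM in DLD1 controls, most of it CD68 again. The 5 endothelial markers summed to 4.24 to 4.37 CPM with lactate and 1.85 to 2.56 CPM in DLD1 controls. Of these VWF had 3.87 and 1.72 CPM, while PECAM1, CDH5, KDR and TEK were under 0.2 CPM in both groups. The part of these shifts in the results was not tested.

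PHLDA1 had 519, 477 and 475 CPM in DLD1 with lactate, against 417, 532 and 418 CPM in controls. Control 2 was the highest of the 6 libraries and the other 2 controls the lowest. The log2 fold change was 0.11 ± 0.13 (adjusted p 0.680 in edgeR). With 1 library left out it ran from 0.05 to 0.23 and was not called. PHLDA3 had 3.08, 2.67 and 2.74 CPM with lactate, against 2.00, 0.794 and 2.82 CPM in controls, where control 2 was lowest. Its log2 fold change had an adjusted p of 0.280 in edgeR, and was 0.31 ± 0.19 after correction for GC content and transcript length. Without control 3 it was 0.94, with an adjusted p of 0.0172, in a fit that called 10.4% of all genes higher, and without control 2 it was 0.23. PHLDA2 was counted 23, 16 and 3 times with lactate, against 2, 2 and 5 times in controls. At 3 counts the third lactate library lay inside the control range. PHLDA2 did not pass the filter on low counts. Tested without a filter it had a log2 fold change of 2.13 and an adjusted p of 0.0667 in edgeR.

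SPRY4 had 29.4, 26.8 and 28.6 CPM in DLD1 with lactate, against 21.0, 17.5 and 25.7 CPM in controls. Every lactate library was above every control, as in 9.82% of all genes, and the adjusted p was 0.181 in edgeR. It was 0.0134 in the same fit without control 3, with a log2 fold change of 0.55, and 0.152 after correction for GC content and transcript length, with 0.27. SPRY1 had 12.02, 11.2 and 11.1 CPM with lactate, against 9.13, 10.1 and 10.8 CPM in controls. These did not overlap either, and the log2 fold change was 0.20 ± 0.13 (adjusted p 0.403 in edgeR). With 1 library left out it ran from 0.14 to 0.26 and was not called. SPRY2 had 16.0, 16.9 and 17.0 CPM with lactate, against 15.2, 15.8 and 16.3 CPM in controls. The groups overlapped, with a log2 fold change of 0.08 ± 0.11 (adjusted p 0.734 in edgeR). With 1 library left out it ran from 0.05 to 0.11 and was not called.

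SPRED1 had 65.2, 64.4 and 60.7 CPM in DLD1 with lactate, against 53.6, 80.5 and 50.3 CPM in controls. Controls 1 and 3 were below all lactate libraries and control 2 above them. Its transcript has the lowest GC content of the 9, at 38.9%, and in control 2 genes of low GC content tended to be high (rho -0.80). Whether that trend set the level of SPRED1 in control 2 was not tested. The log2 fold change was 0.05 ± 0.15 (adjusted p 0.891 in edgeR). After correction for GC content and transcript length it was 0.25 ± 0.06 and was called (adjusted p 0.0324), without control 2 it was 0.29, and without control 3 it was -0.07. SPRED2 had 111.6, 97.7 and 101.6 CPM with lactate, against 79.3, 101.8 and 91.5 CPM in controls, which overlapped (log2 0.19 ± 0.11). Its log2 fold change ran from 0.10 to 0.28 with 1 library left out and was not called. SPRED3 had 2.61, 2.42 and 2.19 CPM with lactate, against 1.61, 2.25 and 1.71 CPM in controls. These overlapped as well, and after the same correction the log2 fold change was 0.08.

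**Figure D3:**
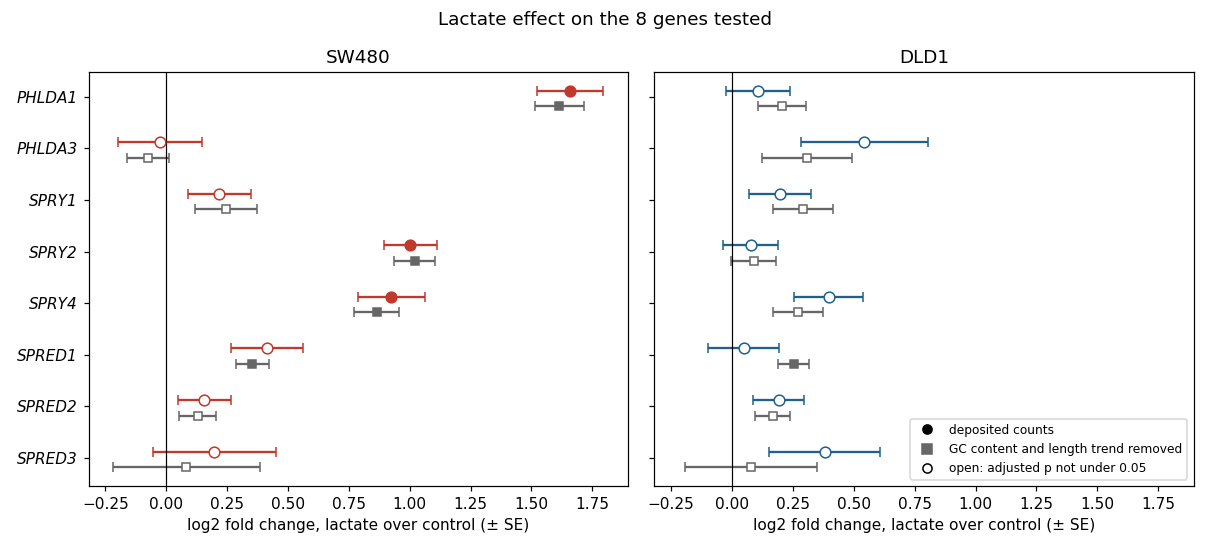
Log2 fold change, lactate over control, ± SE for the 8 genes tested, in SW480 (left) and DLD1 (right), from the deposited counts (circles) and after correction for GC content and transcript length (squares). Filled symbols passed an adjusted p of 0.05: PHLDA1, SPRY2 and SPRY4 in SW480 by both, and SPRED1 in both lines after the correction.

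The lactate effect was smaller in DLD1 than in SW480 for PHLDA1 and SPRY2. Taking the DLD1 effect minus that in SW480 gave -1.55 ± 0.19 on the log2 scale for PHLDA1 (adjusted p 0.00374 in edgeR) and -0.93 ± 0.16 for SPRY2 (adjusted p 0.0168). So 2 of 8 members were called, both lower, where 0.404% of all genes were called lower and 0.728% in either direction. The call of PHLDA1 held without any 1 library, with adjusted p up to 0.0198. That of SPRY2 was lost without SW480 lactate 2 (adjusted p 0.0531), SW480 control 1 (0.0718), SW480 control 3 (0.0648), DLD1 lactate 1 (0.0607), DLD1 lactate 2 (0.0523) or DLD1 lactate 3 (0.0634), with a log2 difference of -0.85 to -0.97 in these fits. SPRY4 had a difference of -0.53 ± 0.20 (adjusted p 0.207). It passed the test after correction for GC content and transcript length (-0.59, adjusted p 0.0118) and without DLD1 control 2 (-0.65, 0.0292). Those 2 fits called 8.05% and 3.29% of all genes in either direction. In 19 of 22 alternatives SPRY4 stayed uncalled, with adjusted p up to 0.427. The other 5 members differed between lines by -0.37 (SPRED1) to 0.57 (PHLDA3), with adjusted p of 0.373 or more. PHLDA3 had 0.96 without DLD1 control 3 (adjusted p 0.0435), in a fit that called 8.35% of all genes in either direction.

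Averaged over both lines, the lactate effect was called for PHLDA1 (0.88 ± 0.09, adjusted p 1.67e-04 in edgeR), SPRY4 (0.66 ± 0.10, 0.00125) and SPRY2 (0.54 ± 0.08, 9.39e-04). Of all genes, 6.27% were called higher on this average, which uses the libraries of the comparisons above. For PHLDA1 it combines 1.66 in SW480 with 0.11 in DLD1, and for SPRY2 1.003 with 0.08. A called average therefore does not show an effect in both lines. The other 5 averages ran from 0.17 (SPRED2) to 0.29 (SPRED3), with adjusted p of 0.157 to 0.313. Without DLD1 control 2 the count was 5, with SPRED1 (0.35, adjusted p 5.48e-04) and SPRED2 (0.22, 0.0204) added, in a fit that called 9.49% of all genes higher. After correction for GC content and transcript length it was 6, with SPRED1 (0.30, 7.63e-05), SPRY1 (0.27, 0.0325) and SPRED2 (0.15, 0.0474) added, and 10.8% of all genes were called higher. Without DLD1 control 3 PHLDA3 was added (0.46, 0.0267), where 11.4% of all genes were called higher.

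**Figure D4:**
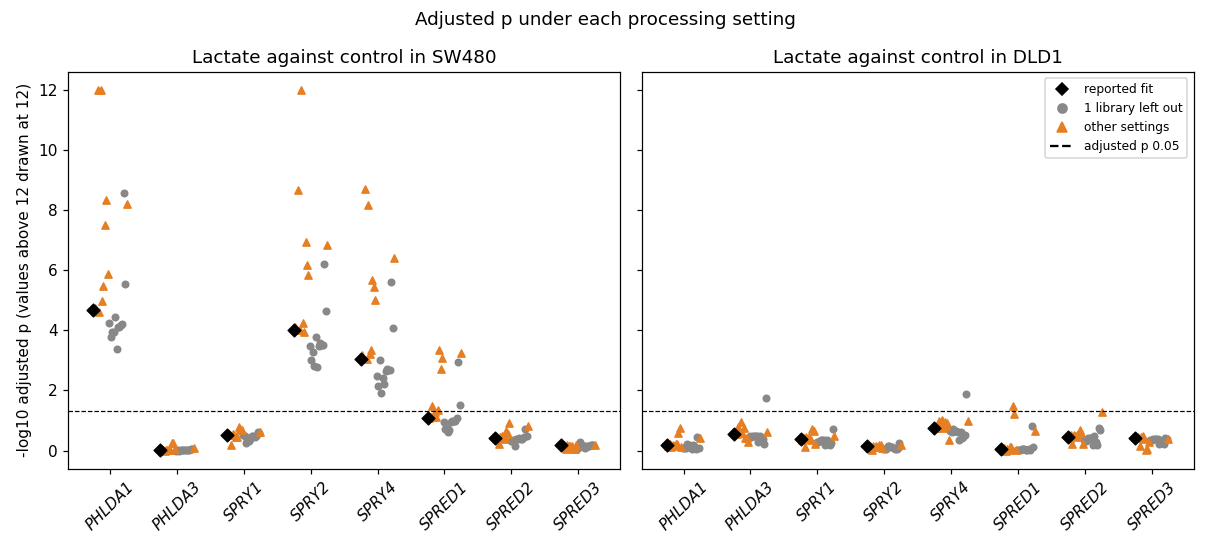
Minus log10 of the adjusted p of each gene for the lactate effect in SW480 (left) and DLD1 (right), in the reported fit (diamonds), with 1 library left out (circles) and under the other settings (triangles), with values above 12 drawn at 12. PHLDA1, SPRY2 and SPRY4 stay above the dashed line at adjusted p 0.05 throughout in SW480, SPRED1 crosses it, and in DLD1 PHLDA3, SPRY4 and SPRED1 pass it in 1 setting each.

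The untreated lines differed in most of these genes. Between DLD1 and SW480 controls, 6 of 8 members were called, 3 higher and 3 lower in DLD1, where 70.8% of all genes were called in either direction. PHLDA3 differed most, at 1.87 ± 1.02 CPM in DLD1 controls against 73.4 ± 0.875 CPM in SW480 controls (SD, n = 3), a log2 difference of -5.24 ± 0.23 (adjusted p 2.27e-11 in edgeR). Reads of the overlapping AC096677.2 could be among them. SPRY4 and SPRY2 were lower in DLD1, with log2 differences of -1.29 ± 0.14 and -0.74 ± 0.11. PHLDA1, SPRED2 and SPRED1 were higher in DLD1, by 0.83 ± 0.13, 0.72 ± 0.11 and 0.45 ± 0.15 (log2). SPRED1 had an adjusted p of 0.0539 without SW480 control 2, and a log2 difference of 0.22 without DLD1 control 2 and 0.82 after correction for GC content and transcript length. SPRY1 (0.16 ± 0.13) and SPRED3 (0.36 ± 0.25) were not called. PHLDA2 had 2, 2 and 5 counts in DLD1 controls and 0 in SW480 controls. All 8 tested members had groups that did not overlap between the lines, as had 70.4% of all genes.

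The order of the 4 groups differed from gene to gene. For PHLDA1 it ran from SW480 lactate through DLD1 lactate and DLD1 control to SW480 control, and the 2 DLD1 groups overlapped. For SPRY2 and SPRY4 both SW480 groups stood above both DLD1 groups. The DLD1 groups overlapped for SPRY2 and not for SPRY4. For SPRED2 both DLD1 groups stood above both SW480 groups, and for SPRED1 the SW480 controls were lowest, with the other 3 groups overlapping. For SPRY1 the SW480 controls were also lowest, and the other 3 groups each overlapped their neighbour in the order. For SPRED3 each group overlapped its neighbour. For PHLDA3 both SW480 groups stood above both DLD1 groups, and the groups of each line overlapped.

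Other genes of the same pathways were described by 7 lists with 107 genes, of which 104 passed the filter. Of 21 genes from receptors to ERK, 0 were called in SW480 and 0 in DLD1, with a median log2 fold change of 0.11 and 0.13. Of all genes tested, 12.4% were called in SW480 and 0.381% in DLD1. At an adjusted p under 0.05 the average over both lines called 2 higher, a share near the 6.27% of all genes called higher on it. These were ERBB3 (0.48), a receptor gene, and MAP2K1 (0.25), the gene of an ERK-activating kinase, which are named after their values were seen. Of 12 partners of Sprouty and SPRED proteins, 0 were called in either line, against 12.4% and 0.381% of all genes in SW480 and DLD1. NF1, the SPRED partner, stood at 148 ± 6.27 CPM in SW480 with lactate and 129 ± 5.37 CPM in SW480 controls, and at 217 ± 18.9 and 231 ± 80.3 CPM in DLD1 with lactate and DLD1 controls.

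Of 11 tested ERK output genes outside the 9, 5 rose and 0 fell in SW480, where 6.83% of all genes rose and 5.59% fell, with a median log2 fold change of 0.42. FOSL1, an AP-1 subunit gene, had 118 ± 14.8 CPM with lactate and 46.0 ± 6.34 CPM in controls (log2 1.36 ± 0.17, adjusted p 2.21e-04 in edgeR). EGR1, a zinc finger transcription factor gene, rose by 0.77 ± 0.13, and the ERK phosphatase genes DUSP6 and DUSP4 by 0.69 ± 0.10 and 0.67 ± 0.14. DUSP4 had adjusted p 0.0535 without SW480 control 1. The fifth was MYC (0.43), named after its value was seen. In DLD1 1 of the 11 rose, the AP-1 gene FOS, with 7.37 ± 1.15 CPM with lactate and 2.73 ± 0.646 CPM in controls (log2 1.41 ± 0.19, adjusted p 0.00851). FOS had 0.187 with DLD1 fitted alone, 0.0600 without DLD1 lactate 1 and 0.0539 without DLD1 control 1. In DLD1 FOSL1, EGR1 and DUSP6 had log2 fold changes of 0.43, 0.61 and 0.39 (adjusted p 0.219, 0.0746 and 0.122).

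Of 16 other feedback inhibitors of receptor and ERK signalling, 7 rose and 1 fell in SW480, with a median of 0.37, against the same shares of all genes. DUSP5, a nuclear ERK phosphatase gene, had 316 ± 67.8 CPM with lactate and 96.7 ± 23.6 CPM in controls (log2 1.71 ± 0.17, adjusted p 7.15e-05 in edgeR). ERRFI1, an inhibitor of EGF receptors, had 3170.1 ± 169 and 1643 ± 258 CPM (0.95 ± 0.13), DUSP2 rose by 0.85 ± 0.14 and SOCS2, an inhibitor of cytokine receptors, by 0.79 ± 0.14. SOCS3, the gene that fell, changed by -0.63 ± 0.14 and is named after its value was seen. In DLD1 0 of the 16 were called, with a median of 0.24, and DUSP5 and ERRFI1 had 0.69 and 0.46 (adjusted p 0.118 and 0.140). The difference of the effects was called for 0 of these 16 genes and for 1 of the 11 ERK output genes, FOS (1.29, adjusted p 0.0271).

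Of 20 p53 targets outside the 9 genes, 2 rose and 0 fell in SW480 (median 0.16), a share near the 6.83% of all genes called higher, namely CDKN1A, an inhibitor of the cell cycle (0.69 ± 0.14), and SESN2, a stress-response gene (0.68 ± 0.12), and 0 were called in DLD1. Of 15 genes of the AKT pathway, 1 rose in SW480, the AKT phosphatase gene PHLPP1 (0.50 ± 0.11, adjusted p 0.00917 in edgeR, and 0.0574 without SW480 lactate 2), which is near that share as well. In DLD1 0 of the 15 were called. Of 9 tested genes in the imprinted region around PHLDA2, 0 were called for lactate in SW480 and 0 in DLD1, where 12.4% and 0.381% of all genes were.

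In untreated cells, 8 of those 9 imprinted-region genes were higher in DLD1 than in SW480, where 33.6% of all genes were called higher. ERK output genes were lower in DLD1 controls for 9 of 11, other feedback inhibitors for 12 of 16 and p53 targets for 14 of 20, where 37.3% of all genes were called lower.

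**Figure D5:**
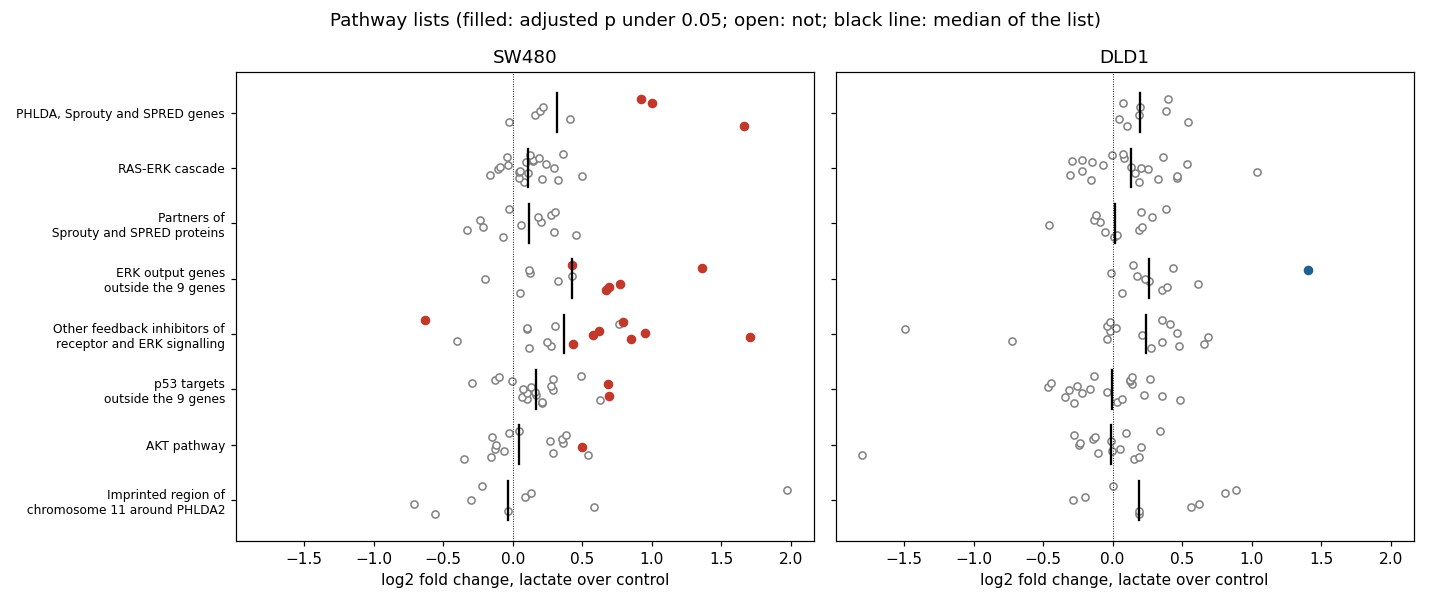
Log2 fold change, lactate over control, of each tested gene in the 9-gene set and in the 7 pathway lists, in SW480 (left) and DLD1 (right), with filled points for genes at an adjusted p under 0.05 and a black line at each list's median. The 3 filled points of the first line in SW480 are PHLDA1, SPRY2 and SPRY4, and in DLD1 the single filled point is FOS.

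Genes with the most similar profile were ranked by Pearson's r of log2 CPM over the 12 libraries, which share lines, treatments and depth, and r is given as a description. PHLDA1 was closest to IRAK2 (r 0.98), EXT1 (0.95) and BNIP3L (0.95). IRAK2 averaged 56.4 ± 3.69 CPM in SW480 with lactate and 26.1 ± 3.75 CPM in SW480 controls, against 38.4 ± 1.05 and 36.4 ± 1.81 CPM in DLD1 with lactate and DLD1 controls. SPRY4 was closest to FOSL1, ZFP36 and ITGA5 (r at least 0.995 each), and SPRY2 to DNAJC14, CNOT8 and SYNE3 (0.99 each). SPRY1 had lower values, with CASC3 (0.91), TSC22D2 (0.91) and HBEGF (0.88), a ligand gene of EGF receptors. SPRED1 was nearest to PIK3CB, AHNAK and CBL (0.96 to 0.97), SPRED2 to KIAA1671, HUWE1 and TRAK1 (0.99), and SPRED3 to PLAGL1, ZXDC and EP300 (0.91 to 0.92). PHLDA3, low in every DLD1 library, was nearest to TUBA1A, TCEA2 and ADAMTS7 (0.997 or more).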

How the data were processed

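The authors deposited raw counts of reads for each gene symbol, with a column for every library. Per the submitters' processing notes, HISAT2 and GRCh38 were used. Aligner version, counting program, gene models and strand setting were not given in the sources used here. Each of the 12 columns was matched to its library by title, with 0 columns left over and 0 identical pairs.

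The counts were tested in edgeR 4.0.16 (R 4.3.3) after filterByExpr (17572 genes kept, 8 of the 9 members) and TMM scaling, using 1 robust quasi-likelihood model with 4 group means. Tests were two-sided. Standard errors were derived from log2 fold change and F. Lengths and GC content came from GENCODE v29 transcripts paired with RefSeq entries, in place of the RefSeq lengths planned, and covered 85.6% of genes for GC content. The correction for both used splines with 5 degrees of freedom. Other tools tried were DESeq2 1.42.0 and limma-voom (limma 3.58.1). The procedure was tested on simulated counts, with changes put into SW480 lactate and, in a further run, a GC trend put into 1 DLD1 control. GC trends in several libraries at once were not simulated.

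Members and lists were chosen with earlier results of these data known. All members are named, as are up to 4 called genes per list and line by smallest p, and per member the 3 genes of highest r, each reaching 5 CPM on average in 1 group or more. Floors cover counting error only.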

Additional observations from a re-analysis of the deposited data

Results flagged for a closer look

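The 2 results here drew attention because the lactate effect differed between the lines in a test of the difference itself. That of PHLDA1 was -1.55 on the log2 scale (DLD1 minus SW480), and that of SPRY2 was -0.93. In DLD1 the effects were 0.11 and 0.08, and in SW480 they were 1.66 and 1.003. Dixon's test of single values was not run on groups of 3. The call of SPRY2 was lost in 6 of the 12 fits that left out a library, and that of PHLDA1 in 0.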

How the results depend on the processing

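Of 184 recomputed values of the 8 members for lactate in SW480, 174 kept their direction and their side of the threshold, as did 178 of 183 in DLD1, 166 of 176 for the average, 154 of 176 for the difference between lines and 175 of 176 between the untreated lines. The count of members called in DLD1 was 0 in the reported fit, 1 after correction for GC content and transcript length (3.37% of all genes), and 0 to 2 with 1 library left out, 2 being without DLD1 control 3, where 21.0% of all genes tested were called (3791). The count for the average was 3, against 6 after that correction, 5 after that correction and a replicate block, 5 with DLD1 controls 2 and 3 left out together (chosen after seeing the data) and 3 to 5 with 1 library left out. For the difference of the effects it was 2, with 1 to 3 when a library was left out. The causes were not tested.

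Signs turned round only among values that were not called. The difference of effects for SPRY1 was 0.046 after that correction and 0.047 after that correction and a replicate block. It was 0.11 without DLD1 controls 2 and 3 together, a fit chosen after seeing the data. With 1 library left out it ran from -0.12 to 0.041. The difference for SPRED3 was -0.0040 after that correction, and that for SPRED2 ranged from -0.053 to 0.12 with 1 library left out. Over such fits PHLDA3 in SW480 ranged from -0.033 to 0.0062 and SPRED1 in DLD1 from -0.073 to 0.29.

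Deviations of same-numbered libraries correlated at -0.17 to 0.27 over 12567 genes, and 3 of the 6 pairs were at 0.07 or below. The same-numbered pairs 2 and 3 of DLD1 had the highest values in that line (0.19 and 0.27). Whether same-numbered libraries were handled together cannot be told from these values, and the reported fit does not pair them. With the replicate block the members called in SW480 were 4, SPRED1 (log2 0.42, adjusted p 0.0463) being added, and the other counts of calls did not move. The number of all genes called for lactate was 2183 in SW480 and 67 in DLD1, against 2345 and 184 with the block, 4996 and 592 after that correction, 2569 and 855 without a filter, 2800 and 705 in DESeq2, and 4783 and 1 with each line fitted alone. With 1 library left out it ranged from 689 to 4347 in SW480 and from 3 (without DLD1 control 1) to 3791 (without DLD1 control 3) in DLD1. PHLDA2 and SPRED3 are limited by depth, with at most 23 and 51 counts per library.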
